A study of Homo sapiens with 6 samples.

Results

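The genes described here make, sense and export cholesterol and make fatty acids. The set is a list of 31 named genes: 6 enzymes from HMG-CoA synthase to farnesyl diphosphate, 11 enzymes from squalene to cholesterol, 4 regulators of the SREBP system, 7 enzymes of fatty acid synthesis, elongation and desaturation, and 3 genes of efflux. A gene was represented by the probe set (the group of array probes for a transcript) with the highest mean among those annotated to it alone, and 28 of the 31 had one, out of 19775 genes so represented. FDFT1, CYP51A1 and FADS1 were not analysed here, the last 2 because their probe sets are shared with LRRD1 and MIR1908. All 28 also passed the filter on low values, which kept 13594 genes whose highest log2 value reached the median of all values, 3.66.

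NB4 cells are an established human line of acute promyelocytic leukaemia in which PML is fused to RARA. All-trans retinoic acid (ATRA), a ligand of retinoic acid receptors, makes such cells mature toward neutrophils. The samples were NB4 cells in RPMI 1640 medium with fetal bovine serum, untreated (0 h) or harvested 4, 12, 24, 48 and 72 h after ATRA at 1e-06 M, with 1 array per time. The untreated cells stand only at the start, so time in ATRA and time in culture cannot be told apart, 1 cell line was used, and no value below has a replicate. In bulk RNA, fewer cells of a kind and less RNA per cell cannot be told apart either.

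Cells build cholesterol from acetyl-CoA through mevalonate, farnesyl diphosphate, squalene and lanosterol. When membrane sterol is low, the escort protein SCAP carries SREBP precursors from the endoplasmic reticulum to the Golgi, where cleavage frees a transcription factor that switches on genes of synthesis and lipoprotein uptake, and INSIG proteins hold the complex back when sterol is plentiful. When sterol is in excess, oxysterols activate the LXR receptors, which switch on the efflux pumps ABCA1 and ABCG1 and also the SREBF1 gene, whose product drives fatty acid synthesis.

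Log2 values of single arrays were compared, so a difference has no p-value. The neutrophil maturation markers ITGAM, S100A8, S100A9, CYBB, CEBPE and PADI4 had a mean log2 level of 5.61 in untreated cells. It was 6.95, 8.71, 10.1, 10.9 and 11.3 on the arrays after 4, 12, 24, 48 and 72 h of ATRA. The mean of 5 measured promyelocyte markers was 7.77 at 72 h, against 9.76 in untreated cells, but the 5 did not move together. At 72 h MS4A3, then below the filter, was at least 40.9-fold lower, and CTSG and MPO differed by -2.42 and -1.98. AZU1 differed by -0.27 and PRTN3 by 0.31. Of 7 measured monocyte and macrophage markers, 5 stayed below the filter on every array, and the highest value of the other two was 4.89. Hybridisation and RNA controls moved between arrays: the spiked control bioC had a mean of 8.01 at 0 h and 8.11 at 12 h but 6.88 to 7.17 on the other four arrays, the 28S rRNA 5′ control read 6.77, 6.33, 10.3, 7.48, 9.51 and 9.63 in time order, and the 18S 3′ control was 9.98 at 12 h and between 5.80 and 6.80 elsewhere. Setting all hybridisation controls to an equal median would raise every difference by 0.71 at 4 h and by 0.66 at 72 h. Setting the controls without bioC to an equal mean would lower every difference by 0.41 and 0.56. These rules differ in the use of bioC and also in median against mean, and the parts of these were not told apart. The median difference of all kept genes was 0.03 at 4 h and -0.06 at 72 h as deposited, and cyclic loess put it at 0.05 at 72 h. Results under these scalings are given below. Whether the controls account for any result was not tested.

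At 4 h, INSIG1, MSMO1, HMGCS1 and FASN were at least 2-fold lower and SREBF1 was at least 2-fold higher. INSIG1, which retains SREBP precursors in the endoplasmic reticulum and is itself an SREBP target, had log2 levels of 10.05 in untreated cells and 8.18, 9.26, 9.71, 9.09 and 9.23 on the ATRA arrays in time order. All 5 ATRA arrays were below the untreated one, and the 4 h array lay farthest below it, by 3.66-fold, in the same direction in 3 of 3 probe sets. MSMO1, the sterol methyl oxidase of the late pathway, stood at 8.82 in untreated cells and 7.58, 8.31, 8.96, 8.18 and 8.82 on the ATRA arrays in time order. Its level was thus 2.35-fold lower at 4 h and equal to the untreated level at 72 h. HMGCS1, which condenses acetyl-CoA and acetoacetyl-CoA at the entry of the mevalonate pathway, read 9.39 in untreated cells and 8.30, 8.25, 9.07, 7.95 and 8.26 on the ATRA arrays in time order. It was 2.13-fold lower at 4 h in the probe set used, whereas its other probe set differed by -0.14. FASN, the fatty acid synthase, was at 9.18 in untreated cells and 8.08, 8.56, 8.99, 8.09 and 6.78 on the ATRA arrays in time order. It was 2.14-fold lower at 4 h in the probe set used, and its other kept probe set differed by 0.25.

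The only member at least 2-fold higher at 4 h was SREBF1, which encodes the SREBP-1 precursors. SREBF1 read 6.66 in untreated cells and 8.02, 7.37, 7.71, 7.42 and 7.31 on the ATRA arrays in time order. Every ATRA array was above the untreated one, by 2.56-fold at 4 h and 1.57-fold at 72 h, and the second probe set differed by 0.34 at 4 h. SREBF2, which encodes the paralogue that mainly drives cholesterol genes, stayed between 6.88 and 7.21 on all arrays in the probe set used, while its probe sets ranged from -0.55 to 0.57 in their difference at 4 h. INSIG2, the second INSIG gene, read 7.31 in untreated cells and 6.70, 7.13, 7.30, 6.73 and 7.13 on the ATRA arrays in time order. In all, 4 of 28 members were at least 2-fold lower at 4 h, where 1.81% of all kept genes were, and 1 was at least 2-fold higher, where 1.74% were. Under equal medians of all controls INSIG1 alone stayed 2-fold lower (-1.16), with HMGCS1 at -0.38, MSMO1 at -0.52 and FASN at -0.39. SREBF1 stayed higher under every scaling and probe set rule tried, at 0.95 with the controls without bioC and 0.85 with the mean of its probe sets, both short of 2-fold.

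**Figure D1:**
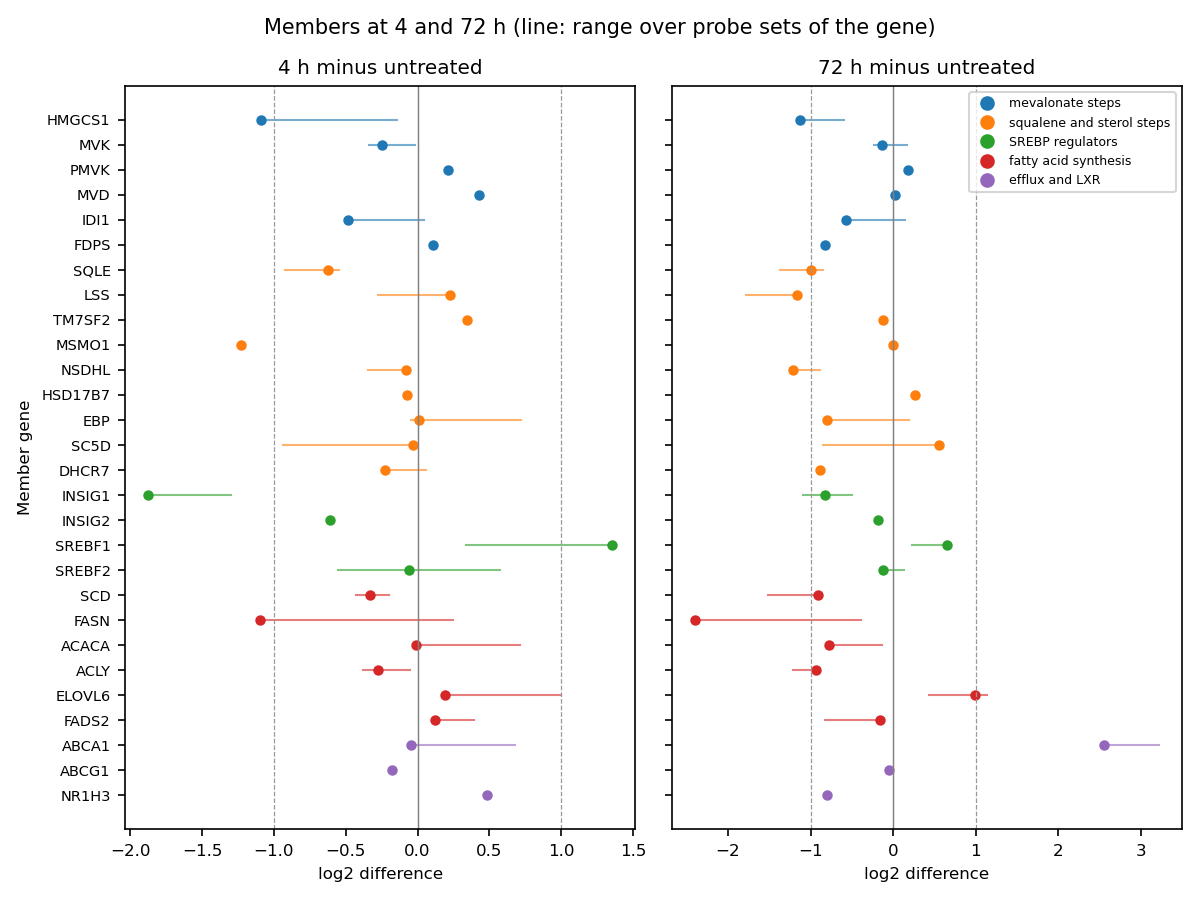
Log2 difference from untreated cells for each of the 28 measured members at 4 h and at 72 h of ATRA, coloured by role, from single arrays. A line spans the probe sets of the gene that passed the filter on low values, and dashed lines mark a 2-fold difference. INSIG1 lies lowest at 4 h (-1.87), FASN lowest at 72 h (-2.40) and ABCA1 highest at 72 h (2.56).

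The promoters below belong to some of the genes that led the early difference or regulate the system, and to ABCA1, which moved the other way late. Those of the regulators SREBF1 and INSIG2 are not printed. The printed promoters were chosen after the values were seen. Sequences are RefSeq promoters on build GRCh38.p14, 250 bases before to 50 after the first listed start of each gene, and 27 of the 31 listed genes matched the table. Capitals mark CCAAT on either strand, the box bound by NF-Y, which assists SREBPs at sterol genes, and TCACNCCAC, a sterol regulatory element consensus. HMGCS1 lies at chr5:43313363-43313662 on the minus strand, MSMO1 at chr4:165327419-165327718 on the plus strand, INSIG1 at chr7:155297628-155297927 on the plus strand, SREBF2 at chr22:41832855-41833154 on the plus strand and ABCA1 at chr9:104928106-104928405 on the minus strand.
HMGCS1: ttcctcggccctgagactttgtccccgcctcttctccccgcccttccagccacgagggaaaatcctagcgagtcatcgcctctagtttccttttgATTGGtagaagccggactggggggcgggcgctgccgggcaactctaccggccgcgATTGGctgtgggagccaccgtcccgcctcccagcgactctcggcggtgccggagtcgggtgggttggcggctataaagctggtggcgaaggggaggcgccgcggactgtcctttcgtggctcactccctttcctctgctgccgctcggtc
MSMO1: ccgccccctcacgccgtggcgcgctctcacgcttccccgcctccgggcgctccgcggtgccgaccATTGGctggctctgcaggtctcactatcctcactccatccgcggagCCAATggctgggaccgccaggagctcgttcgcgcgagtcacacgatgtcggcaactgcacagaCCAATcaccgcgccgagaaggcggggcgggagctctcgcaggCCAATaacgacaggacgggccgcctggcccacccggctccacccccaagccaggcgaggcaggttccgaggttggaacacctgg
INSIG1: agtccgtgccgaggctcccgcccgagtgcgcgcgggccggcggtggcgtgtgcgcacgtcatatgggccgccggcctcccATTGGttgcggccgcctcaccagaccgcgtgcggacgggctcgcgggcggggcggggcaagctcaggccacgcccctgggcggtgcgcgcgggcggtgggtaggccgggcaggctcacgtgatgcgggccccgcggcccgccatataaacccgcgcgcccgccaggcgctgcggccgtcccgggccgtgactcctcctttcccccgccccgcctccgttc
SREBF2: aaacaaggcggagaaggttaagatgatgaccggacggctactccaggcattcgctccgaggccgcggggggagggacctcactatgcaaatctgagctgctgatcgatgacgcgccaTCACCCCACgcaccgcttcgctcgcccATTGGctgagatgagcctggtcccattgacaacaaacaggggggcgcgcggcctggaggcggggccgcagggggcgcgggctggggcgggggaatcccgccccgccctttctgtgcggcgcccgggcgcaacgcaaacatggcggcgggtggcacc
ABCA1: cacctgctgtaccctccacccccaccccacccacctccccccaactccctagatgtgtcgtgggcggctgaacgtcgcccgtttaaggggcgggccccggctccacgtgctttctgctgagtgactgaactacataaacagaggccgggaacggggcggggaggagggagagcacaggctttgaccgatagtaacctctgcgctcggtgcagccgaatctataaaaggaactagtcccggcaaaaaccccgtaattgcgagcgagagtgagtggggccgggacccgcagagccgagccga

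FDFT1, SQLE, FASN and ABCG1 were not matched. Among the 15 matched promoters of the 17 listed cholesterol-step genes, CYP51A1 included, 12 held CCAAT (80%), and 9 held it at least 2 times (60%). The shares among 10865 promoters of kept genes were 36.1% and 13%. Of the other members' promoters, 2 of 4 regulators, 2 of 6 fatty acid genes and 0 of 2 efflux genes held it. The GC box GGGCGG, searched on both strands as well, stood in 14 of 15 cholesterol-step promoters (93.3%) against 66.7% of the kept genes' promoters, and at least 2 times in 46.7% against 43.1%. TCACNCCAC was found only in SREBF2, 133 bases before the start, and in 1.11% of promoters of kept genes. An exact form of the LXR element, AGGTCA and NNNN and a second AGGTCA, was in none of the members' windows. It was in 0 of the 10865 promoters of kept genes, so this search cannot set members apart from other genes. Sites that differ from these letters were not searched. No match says only that these letters are absent from this window.

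Between 4 and 48 h many synthesis genes went through one sequence: lower at 4 h than in untreated cells, higher at 24 h than at 4 h, and lower at 48 h than at 24 h. This order, counted by any amount and picked after the values were seen, was found in 16 of 28 members, against 15.8% of all kept genes. It was found in 8 of 15 cholesterol-step genes, 4 of 6 fatty acid genes, 3 of 4 regulators and 1 of 3 efflux genes, ABCG1. Some steps were small, such as -0.01 for ACACA and -0.03 for SC5D at 4 h. The order was not counted under other scalings. With all controls set equal the cholesterol-step median at 4 h was 0.64. The log2 difference of 24 h from 4 h was 1.53 for INSIG1, 1.37 for MSMO1, 0.91 for FASN, 0.77 for HMGCS1 and 0.60 for INSIG2. At 24 h, 14 of the 15 cholesterol-step genes stood above their 12 h level (59% of all kept genes did), with a median difference of 0.50 against 0.07 over all kept genes. EBP, the sterol isomerase, was the exception at -0.09. At 48 h, 15 of 15 stood below their 24 h level (53.6% of all kept genes did), with a median difference of -0.48 against -0.02. The smallest of these differences were -0.01 for MVK, mevalonate kinase, and -0.02 for SC5D, the sterol desaturase. Across 5 other scalings and probe set rules, added after the data were seen, 12 to 15 genes were lower at 48 than at 24 h. By the same rules 9 to 15 were higher at 24 than at 12 h. The 15 came with all controls set equal and the 9 without bioC, scalings that shift all genes alike. With all controls set equal, the median difference of all kept genes from untreated cells was -0.20 at 12 h, 0.81 at 24 h and 0.98 at 48 h. Without bioC it was -0.14, -0.49 and -0.38. Shares of all kept genes were not counted under the other rules. The rule without x_at sets leaves out HSD17B7, and gave 13 lower and 12 higher. Each of these comparisons rests on single arrays, 1 of which, at 12 h, had the high 18S and 28S rRNA controls, and 28S was also higher at 48 h than at 24 h. Their part in the result was not tested.

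**Figure D2:**
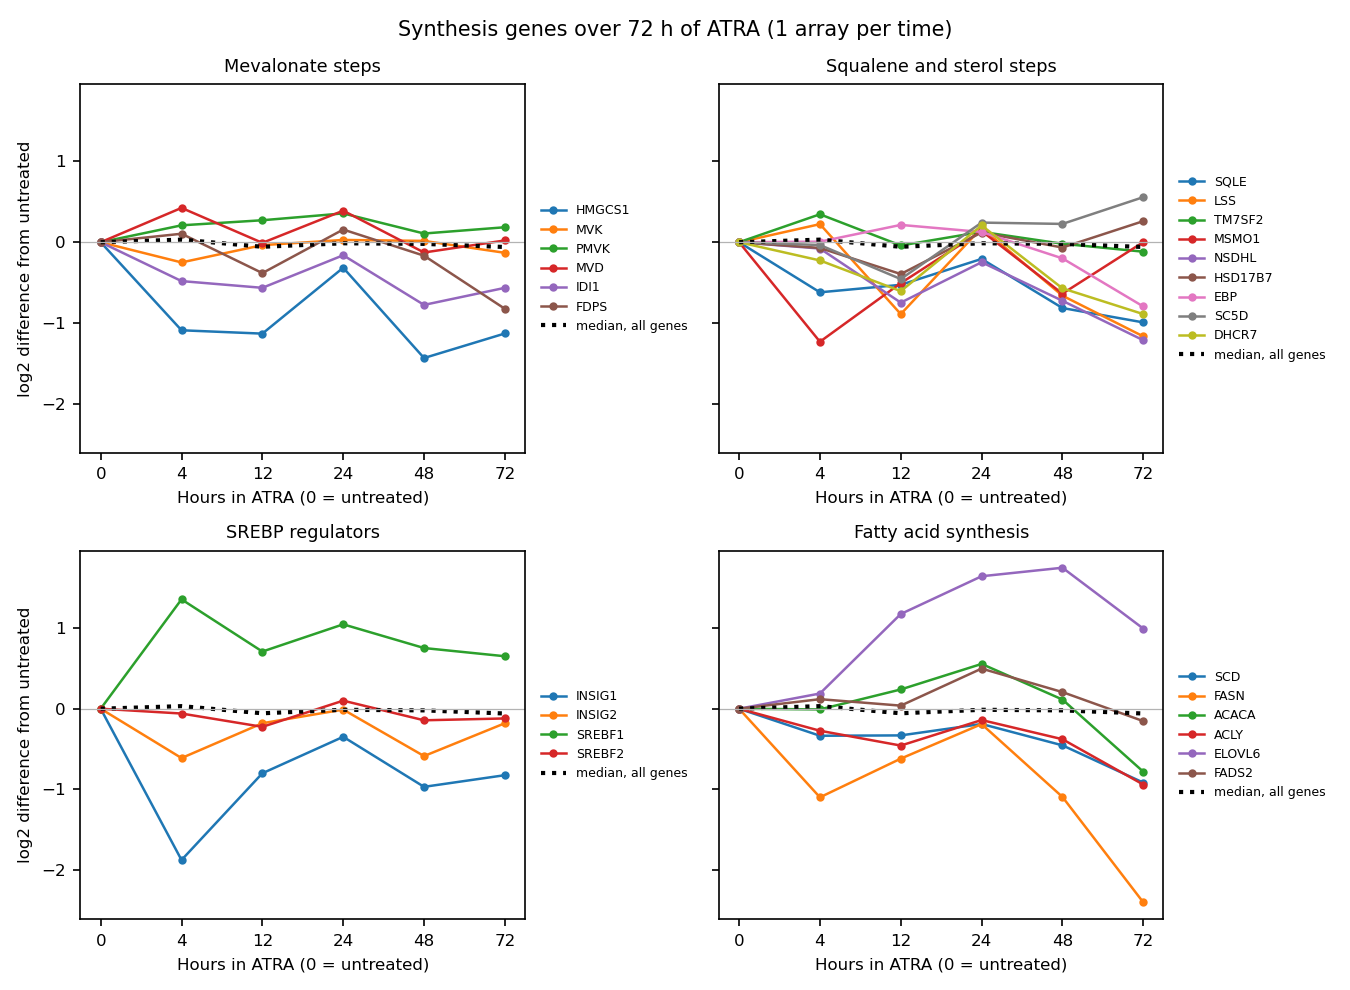
Log2 difference from untreated cells over the 6 arrays, for synthesis genes and regulators in 4 panels by role (lines are single genes, the dotted line is the median of all kept genes, and hours of ATRA are evenly spaced by order). INSIG1 is lowest at 4 h (-1.87) and FASN at 72 h (-2.40), while ELOVL6 is highest at 48 h (1.75).

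**Figure D3:**
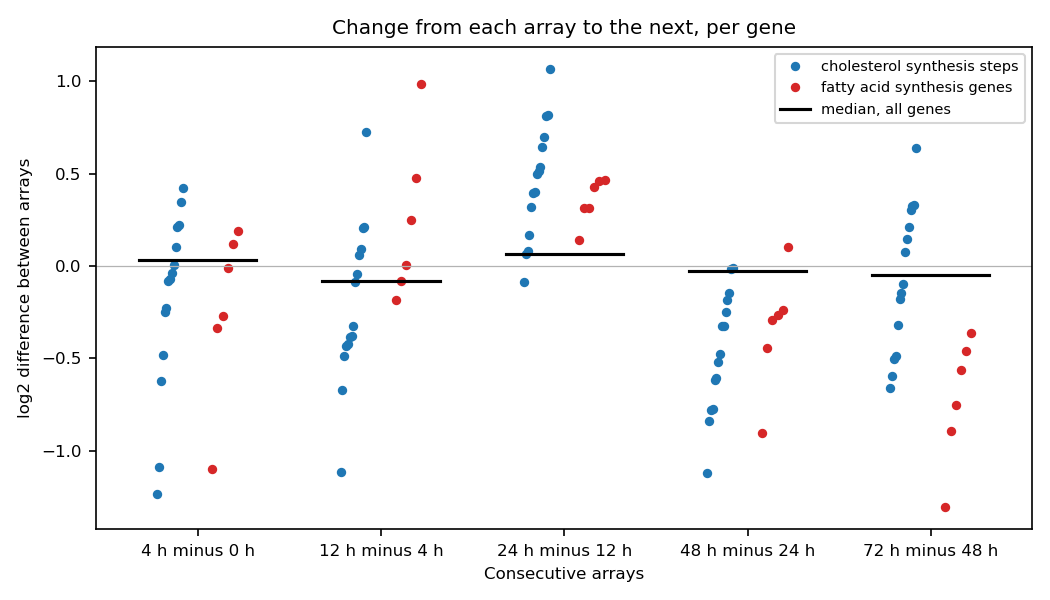
Log2 differences between successive arrays, each point a cholesterol-step gene (15) or a fatty acid gene (6) and each bar the median of all kept genes. Of the cholesterol-step points, 14 lie above 0 for 24 h minus 12 h and 15 below 0 for 48 h minus 24 h.

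At 72 h HMGCS1, LSS, NSDHL and FASN were at least 2-fold lower, 4 of 28 members, where 12.2% of all kept genes were, so the share of members is near the background. HMGCS1, given above, was 2.19-fold lower, and its other probe set differed by -0.60. The 9 squalene and sterol steps had a median difference of -0.80, against -0.06 over all kept genes. That median was -0.47 with cyclic loess, -0.48 with the mean of probe sets, -0.13 with all controls set equal and -1.36 without bioC. The 6 mevalonate steps had a median of -0.35, which was -0.07 with cyclic loess and 0.32 with all controls set equal. NSDHL, a sterol dehydrogenase, read 7.68 in untreated cells and 7.61, 6.94, 7.44, 6.96 and 6.47 on the ATRA arrays in time order. It was 2.32-fold lower at 72 h. As deposited, NSDHL was the only synthesis gene whose falling trend passed the limma test over time order (-0.21 ± 0.06 log2 per step, SE, adjusted p = 0.0483). LSS, which closes squalene epoxide into lanosterol, had 8.25 in untreated cells and 8.48, 7.36, 8.43, 7.59 and 7.09 on the ATRA arrays in time order. LSS was 2.24-fold lower at 72 h, after a 24 h level near the untreated one. SQLE, the squalene epoxidase, read 8.46 in untreated cells and 7.84, 7.93, 8.25, 7.64 and 7.46 on the ATRA arrays in time order. SQLE was lower on all 5 ATRA arrays in the probe set used, by 1.99-fold at 72 h. Its kept probe sets were lower in 3 of 3 at 72 h and in 2 of 3 at 24 h.

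The remaining steps split at 72 h. DHCR7, which makes cholesterol from its last precursor, read 8.95 in untreated cells and 8.73, 8.35, 9.16, 8.38 and 8.06 on the ATRA arrays in time order, and its 72 h difference was -0.89. FDPS, which makes farnesyl diphosphate, read 9.78 in untreated cells and 9.88, 9.39, 9.93, 9.61 and 8.95 on the ATRA arrays in time order. EBP stood at 9.47 in untreated cells and 9.47, 9.68, 9.59, 9.27 and 8.67 on the ATRA arrays in time order. Both were lowest at 72 h, FDPS by -0.82 and EBP by -0.80 in the probe set used. The 4 probe sets of EBP ranged from -0.82 to 0.19 in their difference at 72 h. IDI1, the isopentenyl diphosphate isomerase, differed by -0.56 in the probe set used, an x_at set prone to cross-hybridisation. Of its 4 kept probe sets, 3 were lower at 72 h, and the highest differed by 0.14. Without x_at sets the median of the mevalonate steps at 72 h was -0.05. SC5D was 0.56 higher in the probe set used, with its other probe set lower (-0.85). HSD17B7, a sterol ketoreductase, was 0.26 higher in its only probe set, also an x_at set. MVK, PMVK and MVD, the kinases and decarboxylase of mevalonate, and TM7SF2, a sterol reductase, differed by -0.13, 0.19, 0.02 and -0.12. Of the 15 cholesterol-step genes, 10 were lower by any amount at 72 h than in untreated cells, as were 7440 of the 13594 kept genes, and the differences of MSMO1 (0.00) and MVD (0.02) were near 0. With all controls set equal, the median over the 15 was 0.10 at 72 h, against -0.56 as deposited, and the differences of IDI1, MVK and TM7SF2 turned positive.

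At 72 h, 5 of the 6 measured fatty acid genes were below untreated cells by any amount, as were 7440 of the 13594 kept genes, and ELOVL6 was above. FASN, given above, was 5.27-fold lower at 72 h, in the probe set used, and its other kept probe set differed by only -0.39. ACLY, which supplies cytosolic acetyl-CoA from citrate, read 10.46 in untreated cells and 10.19, 10.00, 10.32, 10.08 and 9.52 on the ATRA arrays in time order, and ACACA, the acetyl-CoA carboxylase, was 8.88, 8.87, 9.12, 9.43, 8.99 and 8.10 in the same order. SCD, the stearoyl-CoA desaturase, stood at 10.32 in untreated cells and 9.99, 9.99, 10.13, 9.87 and 9.41 on the ATRA arrays in time order. The 72 h array was the lowest for each of these genes, and all 6 fatty acid genes were lower at 72 than at 48 h (55.8% of all kept genes were), with a median difference of -0.66. ELOVL6, which elongates saturated chains, read 6.44 in untreated cells and 6.63, 7.62, 8.08, 8.19 and 7.44 on the ATRA arrays in time order. It was at least 2-fold higher at 12, 24 and 48 h and 1.99-fold higher at 72 h, in 3 of 3 probe sets. FADS2, the delta-6 desaturase, stayed between 7.76 and 8.41 in the probe set used. Its 72 h difference there was -0.15, which turned positive with all controls set equal, and its other probe set differed by -0.83. No fatty acid member passed the limma test as deposited: adjusted p was 0.0754 for SCD, 0.0854 for ELOVL6, 0.097 for FASN and 0.103 for ACLY. Of 17 alternative scalings, probe set rules, filters and fits, FASN was called falling in 4, SCD in 3 and ACLY in 2. ELOVL6 was called rising in 2. The median 72 h difference of the 6 was -0.85.

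At the times between, at least 2-fold differences were few. At 12 h ELOVL6 was higher (2.3% of all kept genes were) and HMGCS1 lower (1.93%). At 24 h SREBF1 and ELOVL6 were higher (3.35%) and no member was lower (1.99% of all kept genes were). At 48 h ELOVL6 and ABCA1 were higher (5.83%), and HMGCS1 and FASN lower (4.49%). At 72 h ABCA1 alone was at least 2-fold higher (10.9%).

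Of the 3 efflux members, ABCA1 rose and NR1H3 fell. ABCA1, which loads cholesterol and phospholipid onto apolipoprotein A-I, read 6.48 in untreated cells and 6.44, 7.03, 6.56, 7.83 and 9.04 on the ATRA arrays in time order. The 72 h array was 5.88-fold above the untreated one, the 48 and 72 h arrays were the highest, and the trend rose (0.47 ± 0.11 log2 per step, SE, limma adjusted p = 0.0234). ABCG1, which exports cholesterol to high-density lipoprotein, stayed between 3.59 and 3.99, close to the filter on low values. NR1H3, the gene of LXR alpha, read 5.41 in untreated cells and 5.89, 5.44, 5.08, 4.82 and 4.60 on the ATRA arrays in time order, and its trend fell (-0.22 ± 0.06 log2 per step, SE, limma adjusted p = 0.0337). ABCA1, NSDHL and NR1H3 were the only members called: 1 of 28 rising, where 8.33% of all kept genes were, and 2 of 28 falling, where 9.86% were. Neither share is above the background, and 8 of 28 members had an unadjusted p under 0.05, as did 4449 of all 13594 kept genes. ABCA1 was called in 14 of 17 alternatives, NR1H3 in 9 and NSDHL in 8. In limma, ABCA1 was not called without the 4 h array (adjusted p = 0.0619), without the 72 h array (adjusted p = 0.166) or on the 4, 24, 48 and 72 h arrays alone (adjusted p = 0.0862), and ELOVL6 was the only rising member without the 72 h array. Without the 4 h array no member was called. NR1H3 and NSDHL were both uncalled with all controls set equal and without the 48 h or the 72 h array. With the bioC level as a covariate in the fit, ABCA1 was called rising, LSS and NSDHL were called falling, and NR1H3 was not called.

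**Figure D4:**
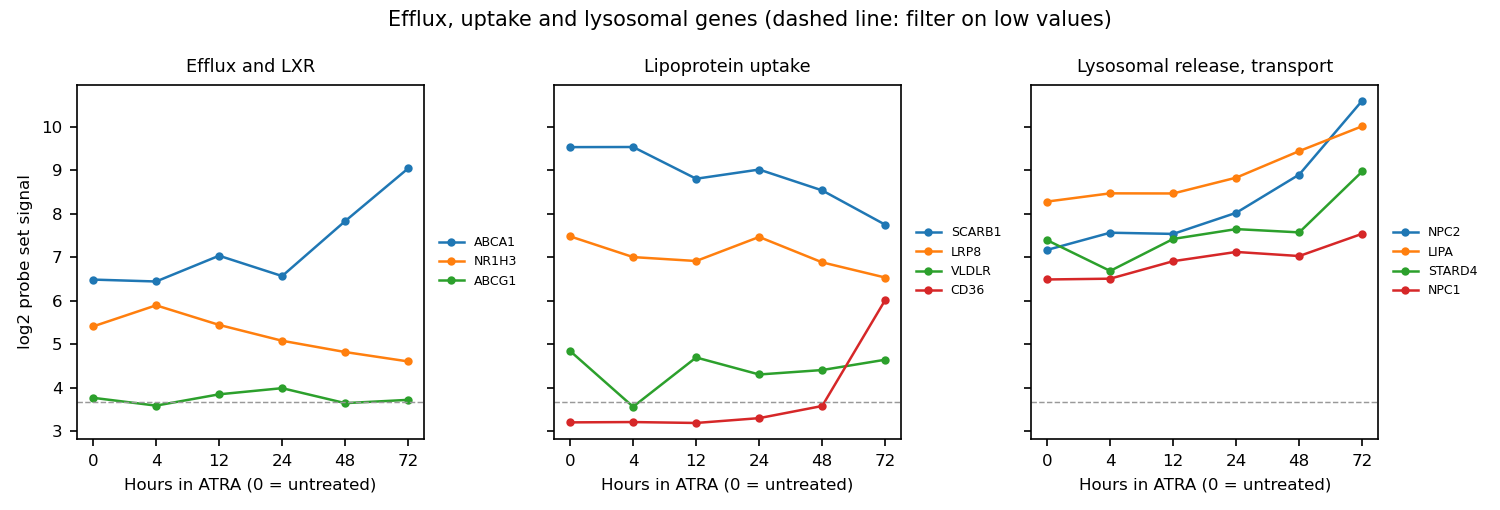
Log2 levels over the 6 arrays (1 array per time, hours of ATRA) for genes of efflux, uptake and lysosomal release. The dashed line is the filter on low values (3.66). At 72 h ABCA1 reads 9.04, NPC2 10.60, SCARB1 7.74 and CD36 6.01.

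Uptake genes had no common direction. No listed member takes up lipoproteins, so a further list of 10 genes was used, of which 9 were measured and 7 kept. SCARB1, a receptor for high-density lipoprotein, read 9.53 in untreated cells and 9.53, 8.80, 9.01, 8.53 and 7.74 on the ATRA arrays in time order. It was 3.44-fold lower at 72 h, in the same direction in 4 of 4 kept probe sets, and its trend fell (limma adjusted p = 0.0112), the only call in the list. CD36, the scavenger receptor, lay below the filter up to 48 h (3.58) and read 6.01 at 72 h, at least 5.10-fold higher, with an adjusted p of 0.08 for its trend in limma. Among the 7 measured monocyte and macrophage markers, CD163 read 4.89 at 72 h and 3.56 at 48 h, and was at least 2.34-fold higher at 72 h than in untreated cells, MARCO was at least 1.17-fold higher, and CD14, MRC1, MSR1, C1QA and C1QB stayed below the filter on all arrays. Their part in the CD36 value was not tested. LRP8, a receptor of apolipoprotein E, differed by -0.95 at 72 h. VLDLR, the very-low-density lipoprotein receptor, read 3.56, just below the filter, at 4 h against 4.84 in untreated cells, at least 2.27-fold lower, and differed by -0.20 at 72 h.

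Of 10 genes that free cholesterol from lysosomes or move it inside the cell, all measured and kept, 3 rose over the series and 0 fell, beside 8.33% and 9.86% of all kept genes. NPC2, which hands cholesterol from the lysosomal lumen to NPC1, read 7.16 in untreated cells and 7.56, 7.53, 8.02, 8.90 and 10.60 on the ATRA arrays in time order. NPC2 was 10.8-fold higher at 72 h (limma adjusted p = 0.00984). LIPA, the lysosomal acid lipase, read 10.01 at 72 h against 8.28 in untreated cells, 3.32-fold higher (limma adjusted p = 0.00796). NPC1, the membrane partner of NPC2, was 2.07-fold higher (limma adjusted p = 0.025). STARD4, a sterol carrier, differed by 1.58 at 72 h and by -0.71 at 4 h, and its trend did not pass (limma adjusted p = 0.0672).

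The shares of all kept genes called, 8.33% rising and 9.86% falling, are the background for the counts in the lists that follow. In the prenylation and isoprenoid list, 11 of 12 genes were measured, and PGGT1B, a subunit of a geranylgeranyl transferase, and RABGGTA, a subunit of the Rab geranylgeranyl transferase, rose (1.11 and 1.25 at 72 h) while RABGGTB, the partner of RABGGTA, fell (-0.92). PDSS1, which makes the coenzyme Q side chain, differed by -0.95 and was not called. Genes of SREBP transport, cleavage and sterol-sensed degradation gave 0 calls in limma among 9 measured, with 1 unadjusted p under 0.05. UBE2G2, a ubiquitin-conjugating enzyme, differed by -0.85 at 72 h, RNF139, a ubiquitin ligase, by 0.65, and ERLIN1 and ERLIN2, scaffolds of sterol-sensed degradation, by -0.55 and -0.54. With all controls set equal, the last 2 turned positive.

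Of the 18 other fatty acid genes listed, 14 were kept, 3 rose and 2 fell. ACSL1, ACSL5 and ACSL4, acyl-CoA synthetases that activate fatty acids, rose (2.39, 1.40 and 1.28 at 72 h), and SCD5, a second desaturase, and FADS3 fell (-2.10 and -0.94). Among 15 measured genes of fatty acid oxidation and storage, PPARA, a lipid-sensing nuclear receptor, MGLL, the monoacylglycerol lipase, and PLIN3, a lipid droplet coat protein, rose. The 72 h difference was 1.62 for PPARA and 0.77 for PLIN3, and MGLL, below the filter in untreated cells, was at least 7.76-fold higher. CPT1A, which admits fatty acids to mitochondria, and FABP5, a fatty acid carrier, fell by 1.26 and 1.78. In the remaining list of efflux, LXR and oxysterol genes, with 10 of 14 kept, ABCA7, a relative of ABCA1, and NCEH1, a cholesteryl ester hydrolase, rose (1.53 and 1.58), and RXRA, the partner of LXR, fell (-1.09). PLTP, the phospholipid transfer protein, was 0.81 higher without a call. Each of the 20 genes called in these further lists was called in 7 to 16 of 17 alternatives. NCEH1 was not kept by the filter at percentile 75, so it was not tested in that alternative.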

How the data were processed

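The authors deposited log2 probe set values for 6 Affymetrix arrays, made with RMA per the submitters' processing notes. Its version is not given in the sources used here. RMA makes the arrays' distributions alike. Per the labels' protocols, total RNA was turned into biotin-labelled cRNA. The 54675 probe sets comprised 41097 with 1 gene, 1801 with several and 11777 with none in the platform annotation, and 62 control probe sets were left out. Symbols were updated through the GRCh38.p14 gene table.

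Differences were taken between single arrays and counted at 2-fold. A fold with an end below 3.66 was computed with that end at 3.66 and is given as at least that value. Trends over time order, coded 0 to 5, were fitted on all 13594 kept genes by lmFit and trended eBayes of limma 3.58.1 (R 4.3.3). Calls needed an adjusted p (Benjamini-Hochberg) under 0.05. The procedure was tested on simulated data. Precision is limited by having so few arrays.

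The members and gene lists were chosen with earlier results of these data known. All members were named, plus up to 4 genes per further list with the largest difference at 72 h among kept genes and every gene of a count of 5 or fewer. The planned promoter rule, cholesterol genes with TCACNCCAC, found none. Alternatives were other scalings, probe set rules, filters, fold limits, baselines and fits, and leaving out each array.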

Additional observations from a re-analysis of the deposited data

How the results depend on the processing

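The median difference of the 15 cholesterol-step genes at 4 h (-0.07) was 0.64 with all hybridisation controls at an equal median. It was -0.48 with the controls without bioC at an equal mean. At 72 h (-0.56) it was -0.25 with cyclic loess, 0.10 with all controls, -1.13 without bioC and -0.23 with the mean of all probe sets. The fatty acid median at 4 h (-0.14) was 0.57 with all controls, -0.55 without bioC and 0.01 with the mean of all probe sets, and at 72 h (-0.85) it was -0.18 with all controls and -1.41 without bioC. Members at least 2-fold higher at 4 h (1) numbered 4 with all controls, and 0 without bioC, with the mean of probe sets or at 3-fold, and those lower (4) numbered 1 with all controls, 2 with the mean of probe sets and 1 at 3-fold. At 72 h those higher (1) numbered 2 with cyclic loess, 4 with all controls, 3 at 1.5-fold and 3 against the 4 h array, and those lower (4) numbered 1 with cyclic loess, 1 with all controls, 14 without bioC, 13 at 1.5-fold and 1 at 3-fold. Rising trends (1) numbered 2 with all controls and 0 on the 4, 24, 48 and 72 h arrays alone, and falling trends (2) numbered 1 with cyclic loess, 0 with all controls, 10 without bioC, 5 with the mean of probe sets, 1 with no filter, 1 with the filter at percentile 75, 5 with hours in place of order and 1 on those 4 arrays. Leaving out each array in turn gave 0 to 1 rising and 0 to 2 falling trends. Cholesterol-step genes higher at 24 than at 12 h (14) numbered 9 without bioC, a scaling that shifts all genes alike. No paired analysis was possible because each time has 1 array. The causes were not tested.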
